A study of Mus musculus with 6 samples.

Results

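Genes of glycolysis and of the response to low oxygen were followed in mouse bone marrow stem and progenitor cells that differ in their labelled dose of the ETS transcription factor Erg. The set was chosen by known function, with earlier results of these data known, and holds 36 genes in 6 roles. The roles are 4 transporters of glucose and lactate, 14 glycolytic enzymes, 2 lactate dehydrogenases, 3 pyruvate dehydrogenase kinases, 6 subunits and regulators of hypoxia-inducible factor (HIF), and 7 other HIF target genes. Of the 36 genes, 31 were tested among 10824 genes in all.

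Glycolysis splits glucose into pyruvate, and lactate dehydrogenase turns pyruvate into lactate, which monocarboxylate transporters carry across the cell membrane. Pyruvate dehydrogenase kinases switch off the enzyme complex that passes pyruvate to the mitochondria. HIF1A pairs with ARNT and activates genes of this kind when oxygen is low. When oxygen is present, the prolyl hydroxylases EGLN1, EGLN2 and EGLN3 mark HIF1A, and VHL then directs it to degradation, a control on the protein that an RNA measurement does not see. Hematopoietic stem cells of the marrow are known for relying on glycolysis and for needing Hif1a and the pyruvate dehydrogenase kinases.

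The knockdown-labelled cells were YFP-negative and are labelled as having about 40% less Erg, and the restored-labelled cells were YFP-positive and are labelled as brought back to the wild-type level. Both came from adult Mx1Cre;Ergkd/+;R26Y mice on a mixed 129-B6 background, so the Erg knockdown allele, the Cre transgene and the Rosa26 stop-YFP reporter were shared by both groups. The Mx1 promoter that drives Cre responds to interferon, and YFP marks cells in which Cre acted on the reporter. The labelled Erg dose therefore cannot be told apart from Cre action or from YFP. Cells were sorted in the LSK gate, which takes cells that lack lineage markers and carry both c-Kit and Sca-1. One array of each population was made from each of mice 278, 279 and 281, which gives 6 Affymetrix Mouse Genome 430 2.0 arrays in 3 pairs.

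Mean intensity per array lay between 1031 and 1071, and the number of arrays, not a read depth, limits the precision. The brightest Erg probe set had 2970, 2754 and 2706 in knockdown-labelled cells of mice 278, 279 and 281, against 2731, 2901 and 2659 in restored-labelled cells, and the other gave a log2 difference of -0.11 ± 0.088 (SE, 95% interval -0.36 to 0.13), so neither showed the labelled reduction. The LSK markers Kit, Cd34, Flt3, Slamf1 and Meis1 were all above the filter. Slamf1 was the dimmest, at 224 to 577, while Ly6a (Sca-1) had no probe set named for it alone. Summed intensity of 8 mature neutrophil genes, which the lineage gate should keep low, ran from 24165 to 49275 in knockdown-labelled cells and from 16669 to 44456 in restored-labelled cells. S100a8 and S100a9 were the brightest of the 8 on every array. The lowest value was 80.3 for Mmp8, on the knockdown-labelled array of mouse 278, below the filter intensity of 143.5. Summed intensity of 9 B lineage and plasma cell genes ran from 28011 to 42085 in knockdown-labelled cells and from 21233 to 22510 in restored-labelled cells, without overlap. Igk alone had 14682, 15499 and 11979 in knockdown-labelled cells of the 3 mice, against 8966, 11462 and 10865 in restored-labelled cells. Of the 9 genes, 6 were above the filter, 5 with a log2 difference above 0, while Cd79b was lower in knockdown-labelled cells of all 3 mice. Cd79a, Ebf1 and the B cell factor Pax5 were below the filter, Pax5 between 0 and 32.5 on the 6 arrays. The restored-labelled array of mouse 279 stood apart: its 3′ to 5′ log2 ratio was 0.68 for the Gapdh controls and 0.74 for the Actb controls, against 0.43 to 0.51 and 0.49 to 0.59 on the other 5 arrays.

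HIF binds DNA at a core of the letters ACGTG or GCGTG, and the stretch just upstream of the transcription start is the nearest place to look for it. The RefSeq promoter table of build GRCm38.p6 holds 33 of the 36 genes, and the 250 bases before each start were searched on both strands. A gene was counted if any of its windows held the letters. ACGTG was present in 21 of the 33 genes (63.6%), against 25.8% of the 8841 tested genes in that table and 18.5% of all its 27025 genes. GCGTG was present in 22 of the 33 (66.7%), against 50.6% of those tested genes and 30.85% of all genes in the table. The letters CACGTG are an E-box that contains ACGTG and is also read by other factors. They were present in 6 of the 33 genes (18.2%), against 10.1% of those tested genes and 6.86% of all genes in the table. The set includes genes chosen as known HIF targets, so its shares are not independent of that choice. A match is a string of letters and was not tested for binding, and Vhl, Tpi1 and Gpi1 held neither core in this window.

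The upstream windows printed here belong to genes whose values are given on every array. Each runs 5′ to 3′ on the plus strand, with ACGTG or GCGTG, or their reverse complements CACGT and CACGC, in capitals. P4ha1 lies at chr10:59323046-59323295, with 3 capital runs. Aldoc, at the first of its listed starts, lies at chr11:78322823-78323072, with 1 run. Slc16a3 lies at chr11:120948817-120949066 with 2 runs, both close to the start. Hif1a lies at chr12:73907617-73907866 with 2 runs, and Ldha at chr7:46845554-46845803 with 3 runs. The first run of Hif1a and the first 2 runs of Ldha are CACGTG.
P4ha1: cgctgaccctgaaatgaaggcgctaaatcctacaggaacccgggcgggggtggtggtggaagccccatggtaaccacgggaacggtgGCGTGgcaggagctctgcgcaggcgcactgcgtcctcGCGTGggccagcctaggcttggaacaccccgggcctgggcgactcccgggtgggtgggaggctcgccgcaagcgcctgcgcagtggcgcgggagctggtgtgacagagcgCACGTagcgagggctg
Aldoc: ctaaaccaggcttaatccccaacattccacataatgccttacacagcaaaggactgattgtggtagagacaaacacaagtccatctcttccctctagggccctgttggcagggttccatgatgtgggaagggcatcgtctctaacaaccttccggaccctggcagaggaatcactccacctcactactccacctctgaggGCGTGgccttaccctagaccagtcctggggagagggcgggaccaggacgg
Slc16a3: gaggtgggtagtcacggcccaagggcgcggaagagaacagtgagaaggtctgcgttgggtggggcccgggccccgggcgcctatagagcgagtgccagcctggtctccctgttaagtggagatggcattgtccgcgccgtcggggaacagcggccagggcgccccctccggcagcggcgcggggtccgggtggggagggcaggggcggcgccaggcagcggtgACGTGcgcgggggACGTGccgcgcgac
Hif1a: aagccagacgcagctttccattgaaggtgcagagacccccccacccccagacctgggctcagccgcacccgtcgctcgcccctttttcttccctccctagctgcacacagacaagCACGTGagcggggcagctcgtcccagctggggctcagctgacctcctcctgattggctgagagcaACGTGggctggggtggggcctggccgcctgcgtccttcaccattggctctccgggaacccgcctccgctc
Ldha: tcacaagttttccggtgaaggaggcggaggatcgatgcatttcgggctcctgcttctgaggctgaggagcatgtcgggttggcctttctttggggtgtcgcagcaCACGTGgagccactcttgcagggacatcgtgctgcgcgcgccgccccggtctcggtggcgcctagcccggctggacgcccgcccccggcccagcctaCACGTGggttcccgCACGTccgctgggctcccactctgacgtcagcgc

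No member passed the adjusted threshold of 0.05 in the paired limma fit, and neither did any other gene (0% of 10824). The smallest adjusted p of a member was 0.771. At unadjusted p below 0.05 stood 3 of the 31 tested members, Slc2a3, Aldoc and P4ha1, beside 5.84% of all genes, which is 632. All 3 had higher values in knockdown-labelled cells. That number was 0 without mouse 281, 1 without mouse 278 and 2 without mouse 279. Differences were taken as knockdown-labelled minus restored-labelled values of log2(intensity + 16), fitted with the mouse as a block and given with their standard errors (n = 3 mice). In sorted populations, fewer cells of a type and less RNA per cell cannot be told apart.

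The median difference of the 31 members was -0.021, beside -0.00015 for all genes tested, with 13 members above 0 and 18 below; Pgk1, Ldhb, Arnt, Egln1 and Bnip3 turned below 0 once arrays were centred on their medians. In knockdown-labelled cells, 5 members were higher in all 3 mice (Slc2a3, Aldoc, Hif1a, Vhl and P4ha1), beside 19.8% of all genes. Another 4 were lower in all 3 mice (Slc16a3, Pfkp, Aldoa and Pkm), beside 12.4% of all genes. The knockdown-labelled arrays lay wholly above the restored-labelled arrays for 4 members, Slc2a3, Aldoc, Hif1a and Vhl, beside 10.1% of all genes. They lay wholly below for 2, Pfkp and Pkm, beside 5.08%. These shares are near those of all genes.

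For 27 of the 31 members the 95% interval of the difference stayed within 1.5-fold in either direction, beside 74.9% of all genes. The other 4 were Slc16a3, Pfkl, Pfkp and Vegfa, whose intervals reached past 1.5-fold. With the restored-labelled array of mouse 279 left out, a comparison added after seeing the data, 7 members lay wholly above in knockdown-labelled cells, beside 16.7% of all genes, with Arnt, Pgk1 and Tpi1 joining the 4 named. The members wholly below were again Pfkp and Pkm, beside 7.07% of all genes.

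**Figure D1:**
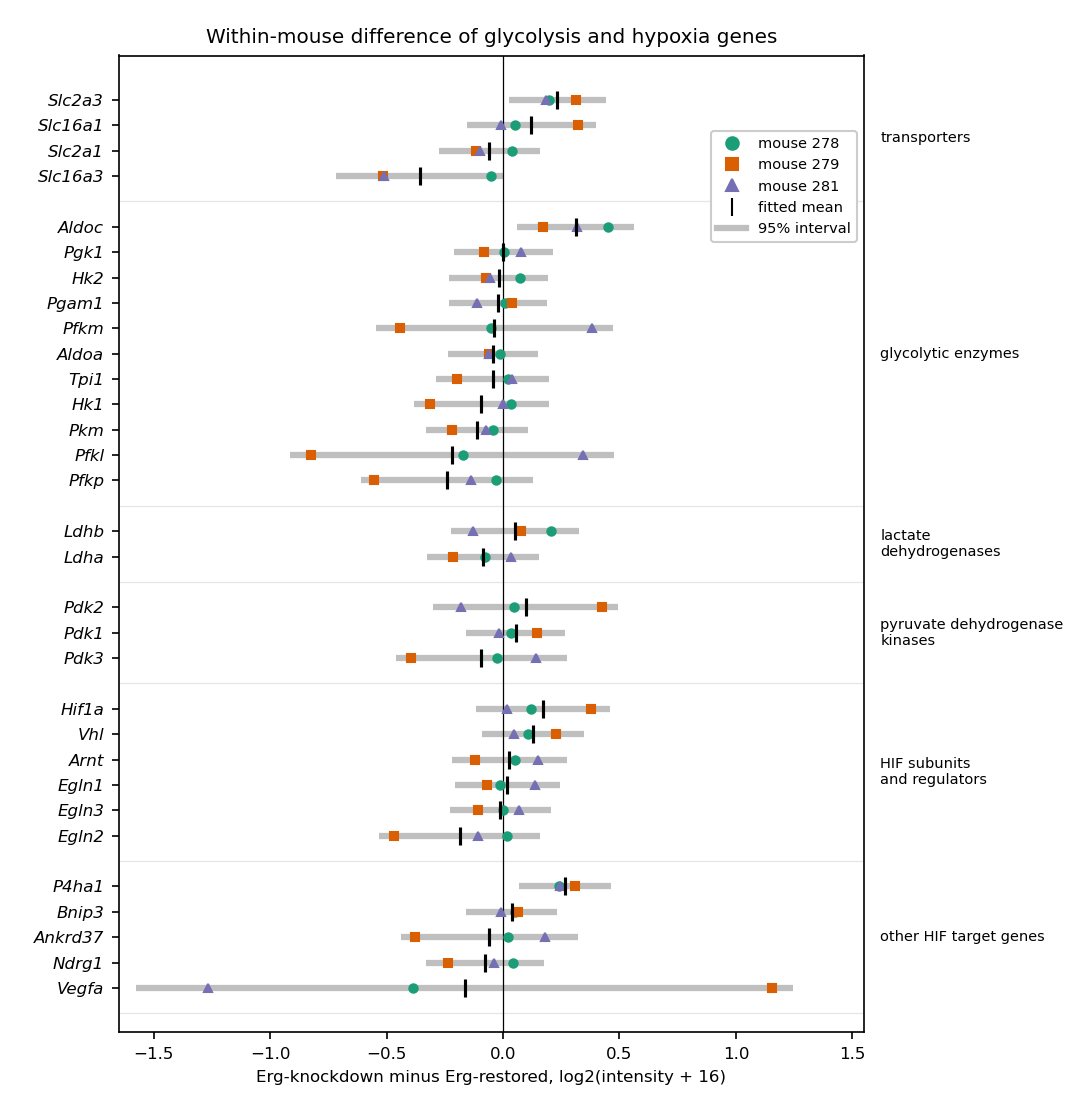
Differences of the 31 tested genes, grouped by role, as knockdown-labelled minus restored-labelled log2(intensity + 16). Points are the 3 mice, black bars the fitted means and grey bars the 95% intervals; the intervals of Slc2a3, Aldoc and P4ha1 lie above 0, and Vegfa has the widest.

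The transporters were measured with 4 of 4 genes tested, 2 with a difference above 0 and 2 below. Slc2a3 encodes the glucose transporter GLUT3. The intensity of its probe set 1437052_s_at was 5930, 5884 and 5851 in knockdown-labelled cells of mice 278, 279 and 281, against 5163, 4732 and 5150 in restored-labelled cells. All knockdown-labelled arrays lay above all restored-labelled arrays, and the 3 knockdown-labelled values were within a narrow range. The difference was 0.23 ± 0.075 with a 95% interval of 0.024 to 0.44 (limma, adjusted p = 0.771), which is 1.17-fold. A second probe set of Slc2a3 gave 0.15 ± 0.080, also without overlap between the groups, and the 2 remaining probe sets were below the filter.

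Slc2a1 encodes GLUT1, the other main glucose transporter of blood cells and a much used HIF target. It had 4775, 4412 and 4188 in knockdown-labelled cells of the 3 mice, against 4644, 4783 and 4488 in restored-labelled cells. The groups overlapped, and the difference was -0.058 ± 0.077. Its other probe sets gave 0.017 and 0.068. The 3 probe sets thus did not share a direction.

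Slc16a3 (probe set 1449005_at) encodes MCT4, a lactate exporter and HIF target. Its intensity was 323, 306 and 378 in knockdown-labelled cells, against 336, 444 and 544 in restored-labelled cells. Each mouse had the lower value in its knockdown-labelled cells, but the groups overlapped across mice. The difference was -0.36 ± 0.13 with an interval from -0.72 to 0 after rounding (limma, adjusted p = 0.771), the largest in size of the members below 0. Macrophages are known to express Slc16a3. Summed intensity of 7 macrophage genes, 5 of them above the filter, was 2839, 4157 and 2156 in knockdown-labelled cells of mice 278, 279 and 281. In restored-labelled cells it was 3709, 3534 and 4586, so mouse 279 had the higher sum in its knockdown-labelled cells. In that mouse Vcam1 had 2070 in knockdown-labelled cells, against 687 in restored-labelled cells. Adgre1 and Cd68 were also higher in its knockdown-labelled cells. C1qb and Aif1 were lower in the knockdown-labelled cells of every mouse, with differences of -1.39 ± 0.33 and -0.97 ± 0.16. All 5 macrophage genes above the filter had a difference below 0. The part of macrophage RNA in the Slc16a3 value was not tested. Slc16a1, which encodes the related lactate transporter MCT1, had 5338, 5750 and 5176 in knockdown-labelled cells, against 5155, 4594 and 5206 in restored-labelled cells, and a difference of 0.12 ± 0.10.

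**Figure D2:**
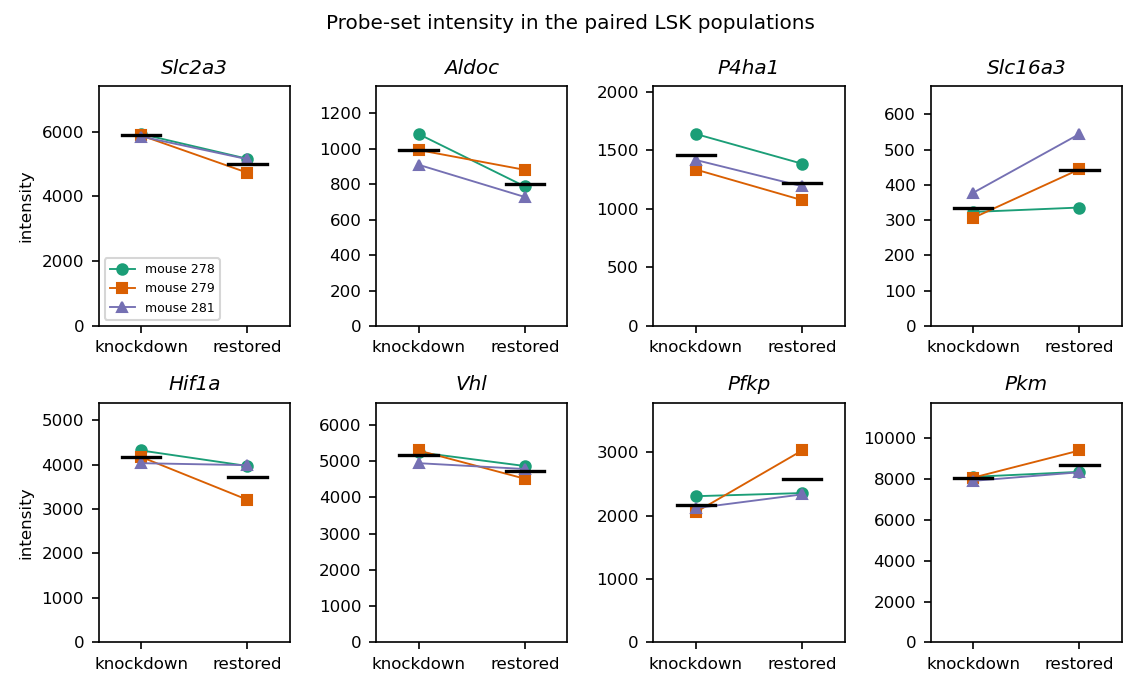
Probe-set intensity of 8 genes in knockdown-labelled and restored-labelled LSK cells, on a linear axis from 0, with a line joining the populations of each of the 3 mice and a black bar at each group mean. Slc2a3, Aldoc, Hif1a and Vhl have every knockdown-labelled point above every restored-labelled point, and Pfkp and Pkm the reverse.

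The glycolytic enzymes had 11 of 14 genes tested, with 2 differences above 0 and 9 below and a median of -0.044. By mouse, the median was 0.0041 in mouse 278, -0.20 in mouse 279 and 0.0019 in mouse 281, while over all genes it was 0.031, -0.044 and 0.032. Mouse 279 thus lay furthest below 0, and 9 of the 11 were lower in its knockdown-labelled cells, beside 5977 of all 10824 genes. In each of mice 278 and 281, 5 of the 11 were lower, beside 4475 and 4555 of all genes. The restored-labelled array of mouse 279 was the highest of the 6 for 8 of the 11 enzymes and for 14 of the 31 members, beside 38.9% of all genes, and the lowest for 6 members and no enzyme, beside 24.7% of all genes. Without mouse 279 the enzyme median was 0.018, and the part of that array's 3′ to 5′ ratios in these values was not tested.

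Aldoc, the fructose-bisphosphate aldolase best known from brain (probe set 1451461_a_at), was 1 of the 2 enzymes with a difference above 0, the other being Pgk1. It had 1084, 993 and 910 in knockdown-labelled cells, against 788, 881 and 728 in restored-labelled cells. The lowest knockdown-labelled array was above the highest restored-labelled one. The difference was 0.31 ± 0.090, with an interval of 0.062 to 0.56 (limma, adjusted p = 0.771), which is 1.24-fold. The aldolase of most tissues, Aldoa, had 10741, 11484 and 10700 in knockdown-labelled cells, against 10845, 11964 and 11148 in restored-labelled cells. Its difference was -0.044 ± 0.070, and the groups overlapped. Of its 5 probe sets 4 gave values between -0.077 and -0.044, and the dimmest gave 0.17.

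Phosphofructokinase carries out the committing step of glycolysis and is encoded by Pfkl, Pfkm and Pfkp. Pfkp, the platelet form (probe set 1416069_at), had 2306, 2055 and 2118 in knockdown-labelled cells, against 2355, 3027 and 2334 in restored-labelled cells. All knockdown-labelled arrays lay below all restored-labelled arrays, and the restored-labelled array of mouse 279 was far above the rest. The difference was -0.24 ± 0.13, and -0.085 without mouse 279. Summed intensity of 7 megakaryocyte genes, all above the filter, was 8755 to 9986 in knockdown-labelled cells and 9513 to 12705 in restored-labelled cells. In mouse 278 the sum was higher in knockdown-labelled cells, at 9618 against 9513. Of the 7 genes, 6 had a difference below 0 and 1, Ppbp, above. The part of this sum in the Pfkp value was not tested.

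The liver form Pfkl and the muscle form Pfkm were singled out after their values were seen, because their mice disagreed. Pfkl had 2711, 2681 and 3193 in knockdown-labelled cells, against 3057, 4768 and 2511 in restored-labelled cells, and differences of -0.17, -0.83 and 0.34 in mice 278, 279 and 281. Pfkm had 1475, 1587 and 1806 in knockdown-labelled cells, against 1528, 2162 and 1383 in restored-labelled cells, and differences of -0.051, -0.44 and 0.38. For both genes mouse 279 and mouse 281 lay on opposite sides of 0. Without mouse 279 the differences were 0.086 for Pfkl and 0.17 for Pfkm, against -0.22 ± 0.25 and -0.037 ± 0.18 with all mice.

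Pkm encodes the muscle-type pyruvate kinase, which makes pyruvate in the last step. It had 8095, 8056 and 7899 in knockdown-labelled cells, against 8338, 9383 and 8319 in restored-labelled cells. The groups did not overlap, and the difference was -0.11 ± 0.079. The files do not say which of the splice forms, PKM1 or PKM2, its probe set (1417308_at) reads.

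Hexokinases start the pathway by phosphorylating glucose. Hk1 gave a difference of -0.093 ± 0.10 and Hk2 one of -0.019 ± 0.076. Both had overlapping groups. Triose phosphate isomerase (Tpi1) gave -0.045 ± 0.087, phosphoglycerate mutase (Pgam1) -0.021 ± 0.076 and phosphoglycerate kinase (Pgk1) 0.00047 ± 0.076. The size of these 5 differences ranged up to 0.093, under their standard errors.

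Gapdh, the dehydrogenase in the middle of the pathway, is represented here by control probe sets and was left out of the fit. Its 3′ control had 11737, 12195 and 12238 in knockdown-labelled cells, against 11705, 13441 and 11848 in restored-labelled cells. The restored-labelled array of mouse 279 was the highest of the 6. In a fit that included named control probe sets, an alternative added after seeing the data, its difference was -0.030 ± 0.080. The 5′ control of Gapdh had 8575, 8625 and 8620 in knockdown-labelled cells, against 8696, 8407 and 8816 in restored-labelled cells, with that same array the lowest. The glucose-6-phosphate isomerase gene Gpi1 and the enolase gene Eno1 have no probe set named for them here.

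**Figure D3:**
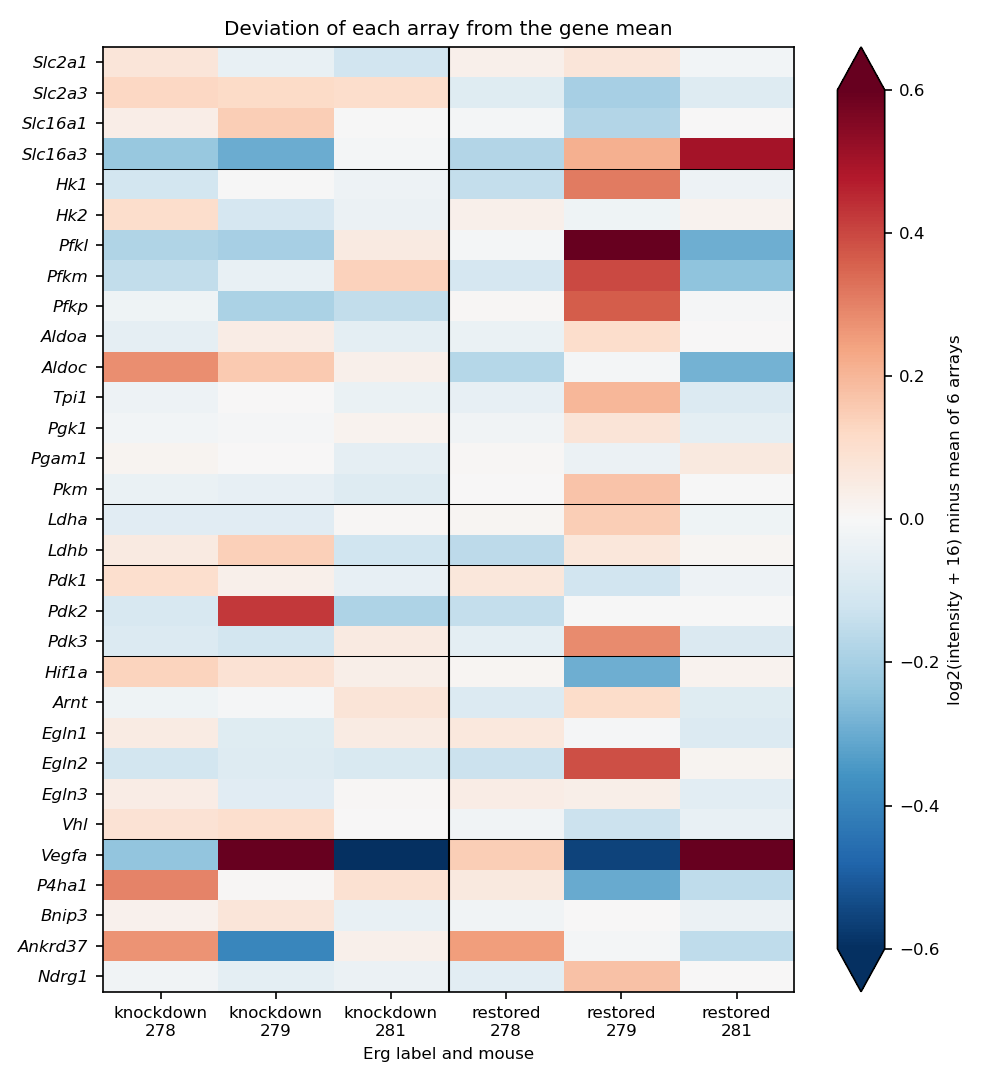
Deviation of each array from the gene's mean over 6 arrays, in log2(intensity + 16), with knockdown-labelled arrays left of the line and restored-labelled arrays right of it; the colour scale ends at ±0.6. The restored-labelled array of mouse 279 is red for most glycolytic enzymes and blue for Slc2a3, Slc16a1, Pdk1, Hif1a, Vhl, P4ha1 and Vegfa, among others.

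Lactate dehydrogenase is built from subunits encoded by Ldha, a HIF target, and Ldhb. Ldha had 10310, 10338 and 10869 in knockdown-labelled cells, against 10892, 11987 and 10613 in restored-labelled cells. The groups overlapped, and the difference was -0.086 ± 0.086. Ldhb gave 0.051 ± 0.098, and its 4 probe sets gave values between 0.051 and 0.13. Both intervals included 0.

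The pyruvate dehydrogenase kinases were all 3 tested. Pdk1, a HIF target, had 6639, 6316 and 5980 in knockdown-labelled cells, against 6484, 5712 and 6051 in restored-labelled cells. The groups overlapped and the difference was 0.054 ± 0.077, with 0.099, 0.13 and 0.14 at its other probe sets. Pdk3, which had the smallest unadjusted p of this role, had 2289, 2239 and 2514 in knockdown-labelled cells, against 2328, 2947 and 2281 in restored-labelled cells, and a difference of -0.093 ± 0.13. Pdk2 gave 0.097 ± 0.14. The 3 kinases thus showed no shared direction, and each interval included 0.

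Of the HIF subunits and regulators, all 6 were tested, 4 with a difference above 0 and 2 below, of which Arnt and Egln1 turned below 0 under that centring. Hif1a, the oxygen-regulated subunit (probe set 1427418_a_at), had 4317, 4171 and 4031 in knockdown-labelled cells, against 3968, 3209 and 3987 in restored-labelled cells. All knockdown-labelled arrays lay above all restored-labelled arrays, by a small margin in mouse 281 and a large one in mouse 279. The difference was 0.17 ± 0.10, and 0.069 without mouse 279. Other Hif1a probe sets above the filter gave 0.22 ± 0.090 and 0.051 ± 0.11.

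Vhl, the adaptor that directs HIF1A to degradation (probe set 1434708_at), had 5237, 5288 and 4938 in knockdown-labelled cells, against 4860, 4509 and 4777 in restored-labelled cells. The groups did not overlap, and the difference was 0.13 ± 0.079. Arnt, the HIF partner that oxygen does not regulate, was singled out after its values were seen because its probe sets differed. The brightest had 3961, 4017 and 4260 in knockdown-labelled cells, against 3820, 4365 and 3841 in restored-labelled cells, and a difference of 0.027 ± 0.089. A second had 1914, 1599 and 1503 in knockdown-labelled cells, against 1432, 998 and 1351 in restored-labelled cells, and gave 0.41 ± 0.13, and the dimmest above the filter gave 0.41 ± 0.12. These last 2 did not overlap between the groups (limma over all probe sets, adjusted p = 0.799).

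The prolyl hydroxylases Egln1, Egln2 and Egln3 mark HIF1A for VHL, and Egln3 is itself a HIF target. Egln1 gave 0.018 ± 0.081 and Egln3 gave -0.012 ± 0.078. Egln2, singled out after its values were seen, had 2347, 2403 and 2381 in knockdown-labelled cells, against 2320, 3326 and 2570 in restored-labelled cells. Its difference was -0.19 ± 0.12 with all mice and -0.046 without mouse 279. The high restored-labelled array of that mouse set it apart from the other 2 hydroxylases.

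**Figure D4:**
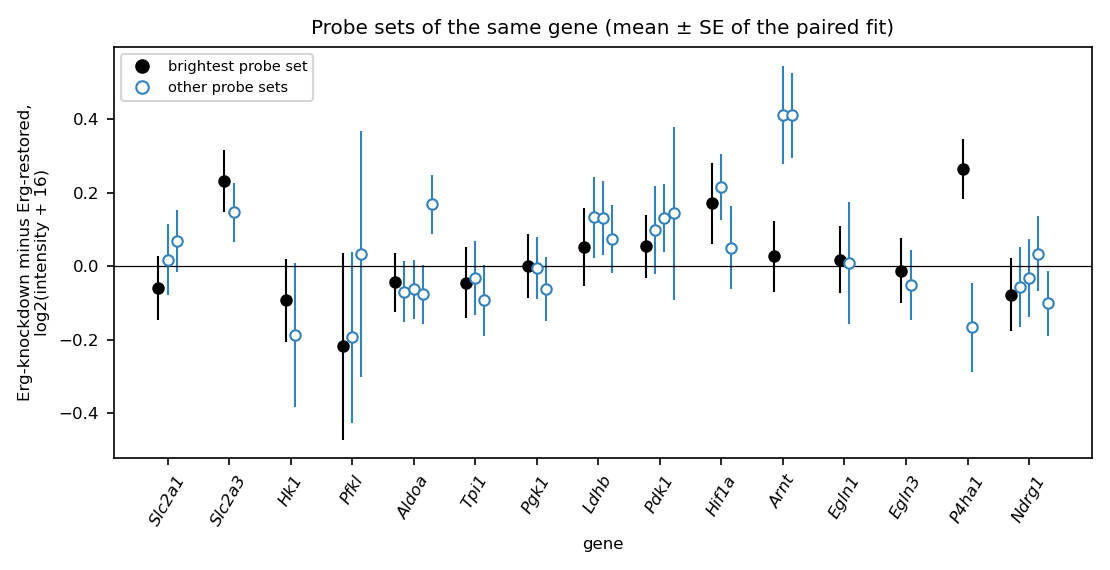
Fitted difference ± SE of every probe set above the filter, for the 15 tested genes with more than 1, as knockdown-labelled minus restored-labelled log2(intensity + 16) with every probe set in the fit. Black points are the brightest probe set; the 2 other probe sets of Arnt sit at 0.41, and those of P4ha1 lie on opposite sides of 0.

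Of the other HIF target genes, 5 of 7 were tested, with 2 differences above 0 and 3 below. P4ha1 (probe set 1452094_at) encodes a subunit of the collagen prolyl hydroxylase. It had 1639, 1335 and 1417 in knockdown-labelled cells, against 1385, 1074 and 1193 in restored-labelled cells. Each mouse had the higher value in its knockdown-labelled cells, by similar amounts, although the groups overlapped across mice. The difference was 0.27 ± 0.071 with an interval of 0.068 to 0.46 (limma, adjusted p = 0.771), which is 1.20-fold. A dimmer probe set gave -0.17 ± 0.12, and the mean over both probe sets was 0.050. The B lineage and plasma cell sums given above did not overlap between the groups. Their part in the values of P4ha1, Aldoc, Slc2a3, Hif1a and Vhl was not tested.

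Vegfa encodes the main angiogenic growth factor and was singled out after its values were seen, for its spread. It had 127, 239 and 94.0 in knockdown-labelled cells, against 171, 98.4 and 248 in restored-labelled cells. The mice gave -0.38, 1.15 and -1.26, and the difference was -0.17 ± 0.51. Vegfa was highest on the restored-labelled array of mouse 281 and next highest on the knockdown-labelled array of mouse 279. These were also the highest arrays in the neutrophil sum, at 44456 and 49275 in that order. The other arrays did not keep the same order. The knockdown-labelled array of mouse 281, lowest for Vegfa, had a sum of 28627. The restored-labelled array with 171 for Vegfa had a sum of 23674.5. The Vegfa values of 127, 94.0 and 98.4 lay below the filter intensity. A dimmer Vegfa probe set, below the filter, had 85.8 on the restored-labelled array of mouse 281 and 63.6 on the knockdown-labelled array of mouse 279. The part of the neutrophil sum in the Vegfa values was not tested.

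Bnip3, a mitophagy receptor, gave a difference of 0.036 ± 0.071. Ndrg1, a stress-induced gene, gave -0.078 ± 0.091, and Ankrd37, a small ankyrin-repeat gene, gave -0.060 ± 0.14. All 3 intervals included 0. P4ha2, a collagen prolyl hydroxylase subunit like P4ha1, was below the filter, with 15.6, 5.60 and 23.9 in knockdown-labelled cells and 48.9, 45.9 and 13.2 in restored-labelled cells. The probe sets of Bnip3l, another mitophagy receptor, are assigned to its pseudogene as well and were not used.

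For 15 tested members with more than 1 probe set above the filter, 9 had all of these on one side of 0. The other 6 had them on both sides, and were Slc2a1, Pfkl, Aldoa, Pgk1, P4ha1 and Ndrg1. The brightest probe sets of Aldoa, Tpi1 and Ndrg1 carry names ending in x_at, which marks probes that can also match other transcripts. Their values are uncertain to that extent. The same holds for the second probe set of Slc2a3 and for dimmer ones of Aldoa, Pgk1 and Ldhb. Names ending in s_at belong to the brightest probe set of Slc2a3 and the second of Arnt, among others. Matches of these to other transcripts were not tested. Over the members, the median size of the difference was 0.046 in mouse 278, 0.23 in mouse 279 and 0.11 in mouse 281, beside 0.098, 0.23 and 0.12 over all genes. Mouse 279 thus had the largest differences of the 3 both for these genes and for all genes.

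Further genes of the same pathways were taken as 5 lists outside the 36, and none of their genes passed the adjusted threshold. Genes of these lists at unadjusted p below 0.05 (limma) stand beside 5.84% of all genes tested. Of 25 other glycolysis genes, 18 were tested, 10 with a difference above 0 and 8 below. Hk3, a hexokinase of myeloid cells, was the one at unadjusted p below 0.05. It had 3036, 3466 and 2688 in knockdown-labelled cells, against 3658, 4001 and 4369 in restored-labelled cells, and a difference of -0.39 ± 0.13. Its groups did not overlap, beside 5.08% of all genes with the knockdown-labelled arrays wholly below. The part of the macrophage sums given above in the Hk3 value was not tested. Of 11 genes around pyruvate dehydrogenase, 9 were tested, with 6 above 0 and 3 below, and the one at that threshold was the phosphatase subunit gene Pdp2, at 0.27 ± 0.082. None of the 6 tested genes of 7 in the pentose phosphate pathway reached it, with 2 above 0 and 4 below.

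Other regulators of HIF numbered 16, of which 12 were tested, 8 with a difference above 0 and 4 below, with a median of 0.094. Hif3a, a HIF alpha subunit with forms that restrain HIF, had 214, 331 and 244 in knockdown-labelled cells, against 153, 176 and 182 in restored-labelled cells. All knockdown-labelled arrays lay above all restored-labelled arrays, beside 10.1% of all genes, and the difference was 0.56 ± 0.13 (limma, adjusted p = 0.771). Crebbp, a coactivator that HIF recruits, gave 0.24 ± 0.076. Of 27 other hypoxia-responsive genes, 21 were tested, 11 above 0 and 10 below, and the one at unadjusted p below 0.05 was Zfp395, at 0.28 ± 0.086.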

How the data were processed

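Total RNA of LSK cells was prepared with a Qiagen kit, amplified with NuGEN Ovation V2 and hybridized to 6 arrays, per the labels' protocols. The deposited values are linear intensities per probe set, 1 column per array; the method by which the authors summarized and normalized them was not given in the sources used here. Of 45101 probe sets, 64 controls were left out; a GEO probe table names 34945 of the rest by 1 symbol, 932 by several and 9160 by none.

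Intensities were taken to log2(intensity + 16), which understates changes of dim genes. Probe sets with a mean at or above the median (intensity 143.5; 22519 probe sets) were kept, with the brightest per gene, which left 10824 genes. limma 3.58.1 in R 4.3.3 (lmFit, eBayes) was fitted with the mouse as a block, with Benjamini-Hochberg adjustment over all 10824. An exact sign-flip test over 3 mice could not go below p = 0.25. The fit was tested on simulated data, and figures were drawn with matplotlib 3.10.9.

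The labels pair the populations by mouse. Deviations of same-mouse arrays from their group means correlated at 0.44 (278), -0.17 (279) and -0.29 (281). All 36 members are named. Every-array values are given at unadjusted p below 0.05, for the same sign in all 3 mice, for the smallest p of each role, and for Slc2a1, Gapdh, Ldha, Pdk1 and Hif1a. The members and lists were chosen with earlier results of these data known. Alternatives were quantile normalization or centring of the arrays, other filters and added values, the mean over probe sets, a random block or none, array weights, trend and robust moderation, and leaving out mice or 1 array. Upstream windows came from RefSeq tables of GRCm38.p6.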

Additional observations from a re-analysis of the deposited data

How the results depend on the processing

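No member passed the adjusted threshold under any of 15 other settings or with named control probe sets included, where the smallest adjusted p of a member was 0.628. With no replicate block, 2 members and 634 genes stood at unadjusted p below 0.05, against 3 and 632 with it, and no other call changed. Leaving out 1 mouse gave 0 to 2 such members (0 without mouse 281), and trend and robust eBayes settings gave 1. Of the 31 tested members, 13 kept their sign in every setting and 18 did not. The cause of these turns was not tested. Under centring of each array on its median the all-gene median was -0.052, and values were -0.051 for Pgk1, -0.00022 for Ldhb, -0.025 for Arnt, -0.034 for Egln1 and -0.015 for Bnip3. The mean over probe sets gave 0.0090 for Slc2a1 and -0.022 for Pgk1. Array weights, whose estimation did not converge, gave 0.059 for Pfkm and 0.0074 for Egln3. With no replicate block and the restored-labelled array of mouse 279 left out, differences were 0.041 for Hk1, 0.041 for Pfkl, 0.15 for Pfkm, 0.043 for Tpi1, 0.025 for Pdk3 and 0.0037 for Egln3.

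Leaving out each mouse in turn gave ranges of -0.16 to 0.018 for Hk1, -0.065 to 0.0074 for Hk2, -0.50 to 0.086 for Pfkl, -0.25 to 0.17 for Pfkm, -0.087 to 0.031 for Tpi1, -0.039 to 0.042 for Pgk1, -0.050 to 0.024 for Pgam1, -0.026 to 0.14 for Ldhb, -0.068 to 0.24 for Pdk2, -0.21 to 0.058 for Pdk3, -0.034 to 0.10 for Arnt, -0.041 to 0.061 for Egln1, -0.053 to 0.035 for Egln3, -0.82 to 0.38 for Vegfa, -0.18 to 0.10 for Ankrd37 and -0.14 to 0.0016 for Ndrg1. The transporter median was 0.12 with the upper 30% of probe sets, where Slc16a3 did not pass. The median of the other HIF targets, -0.060 in the fit reported, was -0.11 with centring, 0.036 with the upper 30%, where Vegfa and Ankrd37 did not pass, -0.00092 with array weights, -0.0092 with that array of mouse 279 and the block left out, and -0.055 to 0.058 with 1 mouse left out.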
